A study of Mus musculus with 6 samples.

Results

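The mitochondrial ribosomal protein genes were taken as the rows of the deposited gene table whose symbol begins with Mrpl or Mrps followed by a digit. The table has 26469 gene rows, and 78 of them met this rule after 5 symbols marked as pseudogenes (-ps) were left out. Of the 78 genes, 49 carry a large subunit symbol (Mrpl) and 29 a small subunit symbol (Mrps). RNA was measured in 6 cultures of naive CD4+ T cells from mouse spleen. Each culture lasted 36 h and contained TGFβ (5 ng/ml), hamster antibodies against CD3 and CD28 for activation, and antibodies that block IL-4 and IFNγ, conditions used to induce regulatory T cells. The 3 control cultures came from Sf3b1K700E/fl mice and carry the annotation WT. The 3 mutant cultures came from Sf3b1K700E/fl /Cd4Cre mice and carry the annotation Sf3b1 mutation, so the conditional allele of the splicing factor gene Sf3b1 is shared by both groups and the recombinase is what sets them apart. Cd4Cre is active in developing T cells of the thymus, before the CD4 and CD8 lineages part. No age is stated for the mice, nor whether each culture had its own animal, so the p-values reflect the spread of these 6 samples, part of which may be technical.

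Mitochondria keep a ribosome of their own, which makes the few proteins encoded by mitochondrial DNA, all of them parts of the respiratory chain and ATP synthase. Its RNA comes from mitochondrial DNA, while its proteins are encoded in the nucleus, made on cytosolic ribosomes and imported. The small subunit reads the messenger RNA and the large subunit joins the amino acids. Many of its proteins descend from those of the bacterial ribosome, and others were added in mitochondria. Symbols do not follow the structure in every case: Mrps18a and Mrps30 sit in the large subunit, and Mrps36 is now counted as a part of the 2-oxoglutarate dehydrogenase complex. Activated T cells enlarge their mitochondria and need mitochondrial translation to proliferate.

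The promoters of 4 genes that recur in the results are shown first. Mrps7 and Mrpl2 were the members with the lowest p in each subunit. Mrps18b had the lowest log2 fold change of a trio of related genes, and Mrpl33 was the member with the highest level per exon length. Each promoter runs from 250 bases before to 50 bases after the transcription start, 5′ to 3′ on the gene's strand, from RefSeq on GRCm38.p6. The deposited counts belong to another build, so these coordinates apply to the sequences alone. Capitals mark matches, on either strand, to 4 short motifs: the ETS core (CCGGAAG), a half-site of NRF1 (GCGCATG), the YY1 core (AAGATGG) and the E-box (CACGTG). ETS factors, NRF1 and YY1 are known regulators of nuclear genes for mitochondrial proteins, and the E-box is bound by MYC and related factors. Mrps7 is at chr11:115603890-115604189 on the plus strand, Mrpl2 at chr17:46645971-46646270 on the plus strand (the first of 3 starts listed for it), Mrps18b at chr17:35916391-35916690 on the minus strand and Mrpl33 at chr5:31613701-31614000 on the plus strand.
Mrps7: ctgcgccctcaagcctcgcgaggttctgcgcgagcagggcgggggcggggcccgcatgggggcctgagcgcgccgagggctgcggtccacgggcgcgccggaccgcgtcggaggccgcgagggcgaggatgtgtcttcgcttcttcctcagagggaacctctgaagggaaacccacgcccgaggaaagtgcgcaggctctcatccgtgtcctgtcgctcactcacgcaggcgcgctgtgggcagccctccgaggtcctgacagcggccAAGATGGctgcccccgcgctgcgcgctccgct
Mrpl2: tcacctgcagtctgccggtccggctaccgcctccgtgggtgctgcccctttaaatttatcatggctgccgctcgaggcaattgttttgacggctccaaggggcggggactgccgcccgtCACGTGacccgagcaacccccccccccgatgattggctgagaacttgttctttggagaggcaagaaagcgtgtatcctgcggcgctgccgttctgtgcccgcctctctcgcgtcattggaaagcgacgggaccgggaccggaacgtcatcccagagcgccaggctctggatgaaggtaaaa
Mrps18b: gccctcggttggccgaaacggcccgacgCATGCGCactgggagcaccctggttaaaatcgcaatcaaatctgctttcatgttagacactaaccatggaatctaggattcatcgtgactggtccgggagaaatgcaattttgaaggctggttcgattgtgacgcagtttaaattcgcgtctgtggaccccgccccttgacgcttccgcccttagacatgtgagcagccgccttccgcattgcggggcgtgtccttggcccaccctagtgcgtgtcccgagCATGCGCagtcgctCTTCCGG
Mrpl33: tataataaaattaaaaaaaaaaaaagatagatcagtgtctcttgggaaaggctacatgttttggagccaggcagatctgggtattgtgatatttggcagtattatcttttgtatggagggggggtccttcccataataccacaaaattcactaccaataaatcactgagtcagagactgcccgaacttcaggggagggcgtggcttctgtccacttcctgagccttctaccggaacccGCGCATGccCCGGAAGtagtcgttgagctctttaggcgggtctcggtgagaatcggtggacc

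In these windows Mrps7 held 1 YY1 core, beginning at base 19 after the start, and Mrpl2 held 1 E-box, beginning 131 bases before it. Mrps18b held 2 NRF1 half-sites and 1 ETS core, all as the reverse complement. In Mrpl33 an NRF1 half-site and an ETS core lay beside each other, at -12 and -3. Across the members, 69 of 78 had a promoter in the RefSeq table, with 75 promoters in all. The ETS core was in 34.7% of these 75, against 17.1% of the 13535 promoters of genes tested here and 8.86% of all 32851 promoters of the same length. The YY1 core was in 17.3%, 7.03% and 6.34% of the same sets, and the NRF1 half-site in 10.7%, 6.6% and 3.91%. The E-box was in 9.33%, 9.89% and 7.15%. The 7 member promoters with an E-box include all 3 listed starts of Mrpl2, so they belong to 5 members. By subunit, the ETS core was in 31.2% of 48 large and 40.7% of 27 small subunit promoters. The YY1 core was in 14.6% and 22.2%, and the NRF1 half-site in 14.6% and 3.7%. The ETS and YY1 cores can share the letters AAG, and 4 member promoters held both, with 0 in which the matches overlapped. A match is a description of the sequence, not of a bound factor.

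The libraries held from 33633196 to 43928723 estimated counts, with control 2 the deepest, and the 78 members took 0.289 ± 0.020% of the counts in control and 0.271 ± 0.032% in mutant libraries (SD, n = 3). All 78 passed the filter on low counts, and the lowest value of any member in any library was 142 estimated counts. The 9 T cell markers summed to 1990 to 2720 CPM in control and 2240 to 3130 CPM in mutant libraries, where CPM is the count scaled to the library total after TMM normalization. The 6 B cell markers summed to 1.94 to 5.17 CPM in control and 3.73 to 43.4 CPM in mutant libraries, the 2 CD8 markers to 5.81 to 40.4 and 6.56 to 17.3 CPM, the 5 regulatory T cell markers to 2940 to 3370 and 2170 to 3710 CPM, and the 6 myeloid markers to 1.42 to 2.93 and 2.23 to 4.3 CPM. No marker found in the table was at 0 in every library. The part of these cells in the results below was not tested. Sf3b1 was at 661 ± 44.3 CPM (control) and 627 ± 30.4 CPM (mutant) (SD, n = 3), and gene counts do not show the mutant allele.

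Mitochondrial ribosomal protein genes were, as a group, slightly lower on average in mutant than in control libraries, but this direction rested on 2 libraries and no single gene passed the test. The mean was lower in mutant cells for 67 of the 78 members (85.9%), where 47.1% of all 18323 genes tested were lower. The median log2 fold change was -0.14 over the members and 0.02 over all genes tested. Of the members, 67 had their highest value in control 2, a share of 85.9% against 18.9% of all genes tested, and 52 had their lowest in mutant 1, 66.7% against 29.2%. Mutant 1 also stood apart over all genes: the chi-square per degree of freedom of its counts against each other library was 139 to 198, and that of the pairs without it 18.7 to 62.3. When control 2 and mutant 1 were both left out, 24 of 78 members were lower and the median was 0.05, so the direction turned. That setting was chosen after the data were seen. Control 2 was also the deepest library and had the lowest TMM factor, 0.927 against 0.999 to 1.026 in the others, and the part of this in its values was not tested. In bulk RNA fewer cells of a type and less RNA per cell cannot be told apart.

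**Figure D1:**
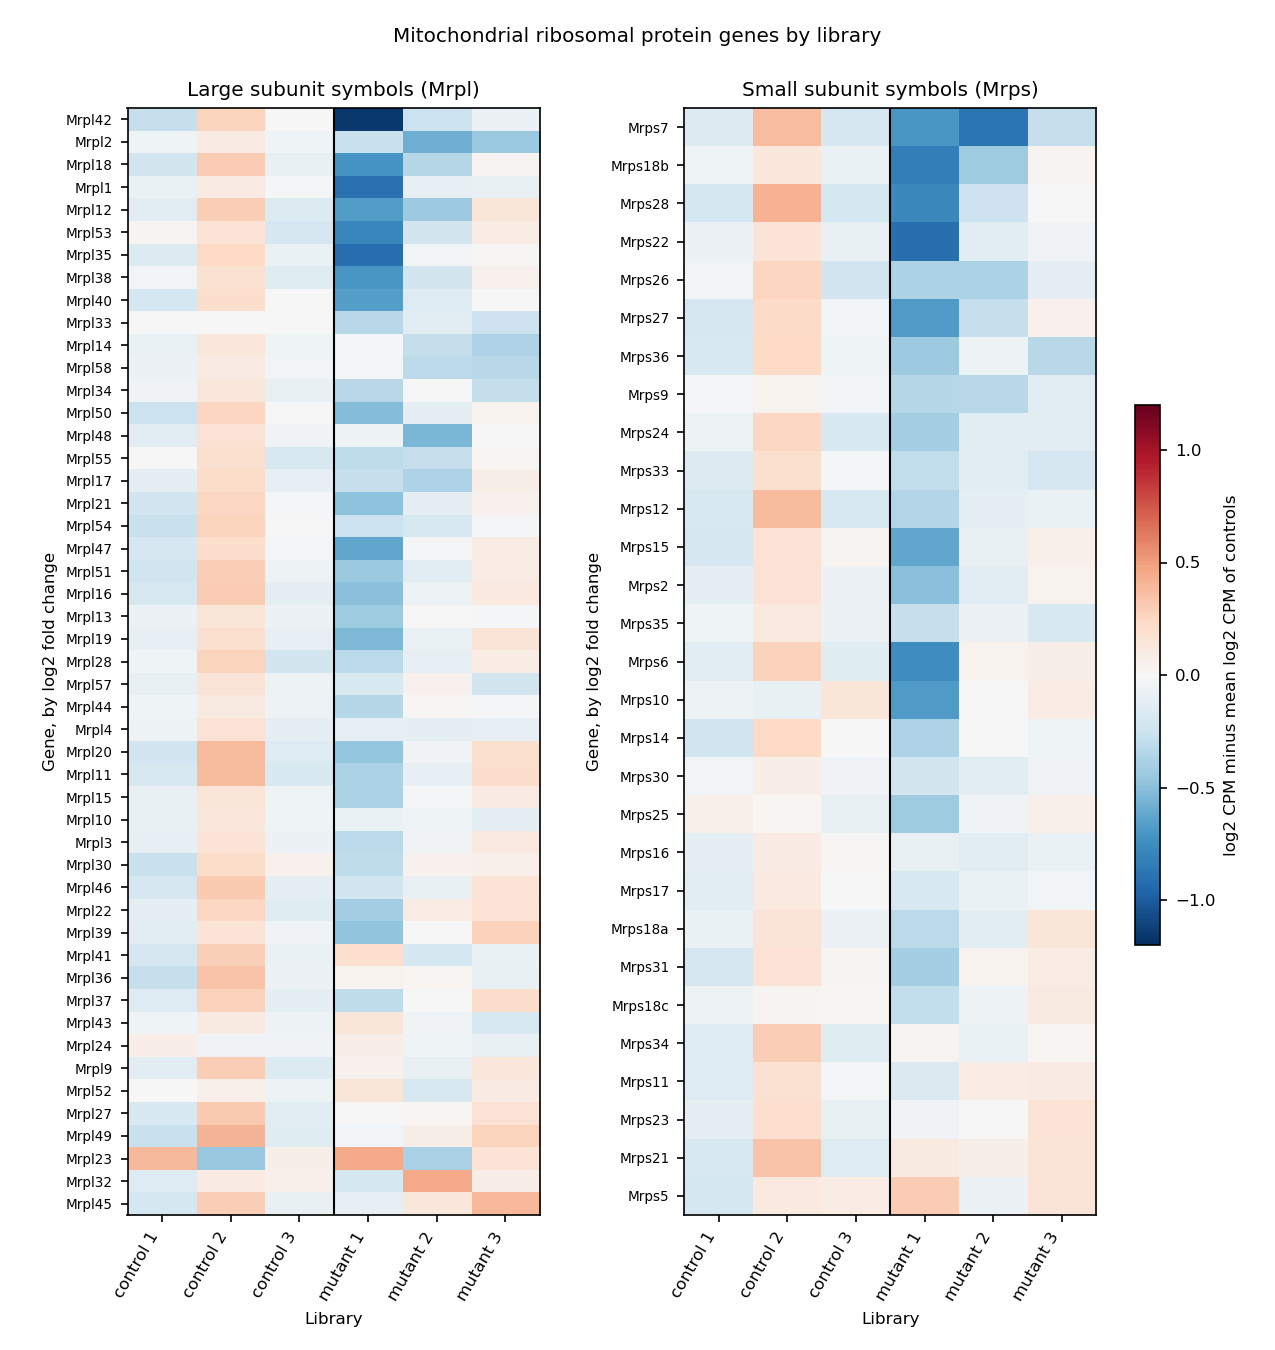
Each row is a mitochondrial ribosomal protein gene and each column a library. Colour is log2 CPM minus the mean log2 CPM of the 3 controls (red above, blue below), with genes ordered by log2 fold change. The column of control 2 is red in most rows and that of mutant 1 is the darkest blue, while mutant 3 is pale.

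By edgeR's quasi-likelihood test with Benjamini-Hochberg adjustment, 0 of 78 members passed an adjusted p of 0.05, where 0% of all genes tested passed. At an unadjusted p under 0.05 there were 2 members of 78, Mrpl2 and Mrps7, against 7.62% of all genes tested (1396 of 18323). Both had the lower mean in mutant cells, a combination found in 3.48% of all genes tested. DESeq2 called 0 members, with 0.64% of genes called overall (100 of 15627 given an adjusted p), and limma-voom called 0 members and 0 genes. The smallest adjusted p among the members was 0.644 in edgeR and 0.395 in DESeq2. All 3 mutant values were under all 3 control values in 7 members, where 7.48% of all genes tested did so, and in 0 members were they all above, against 6.6%. The 7 were Mrpl1, Mrpl2, Mrpl33, Mrps7, Mrps9, Mrps30 and Mrps35, a share near the background. The median half-width of the members' 95% intervals was 0.43 on the log2 scale, so shifts of the size of the group median are within the error of single genes.

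**Figure D2:**
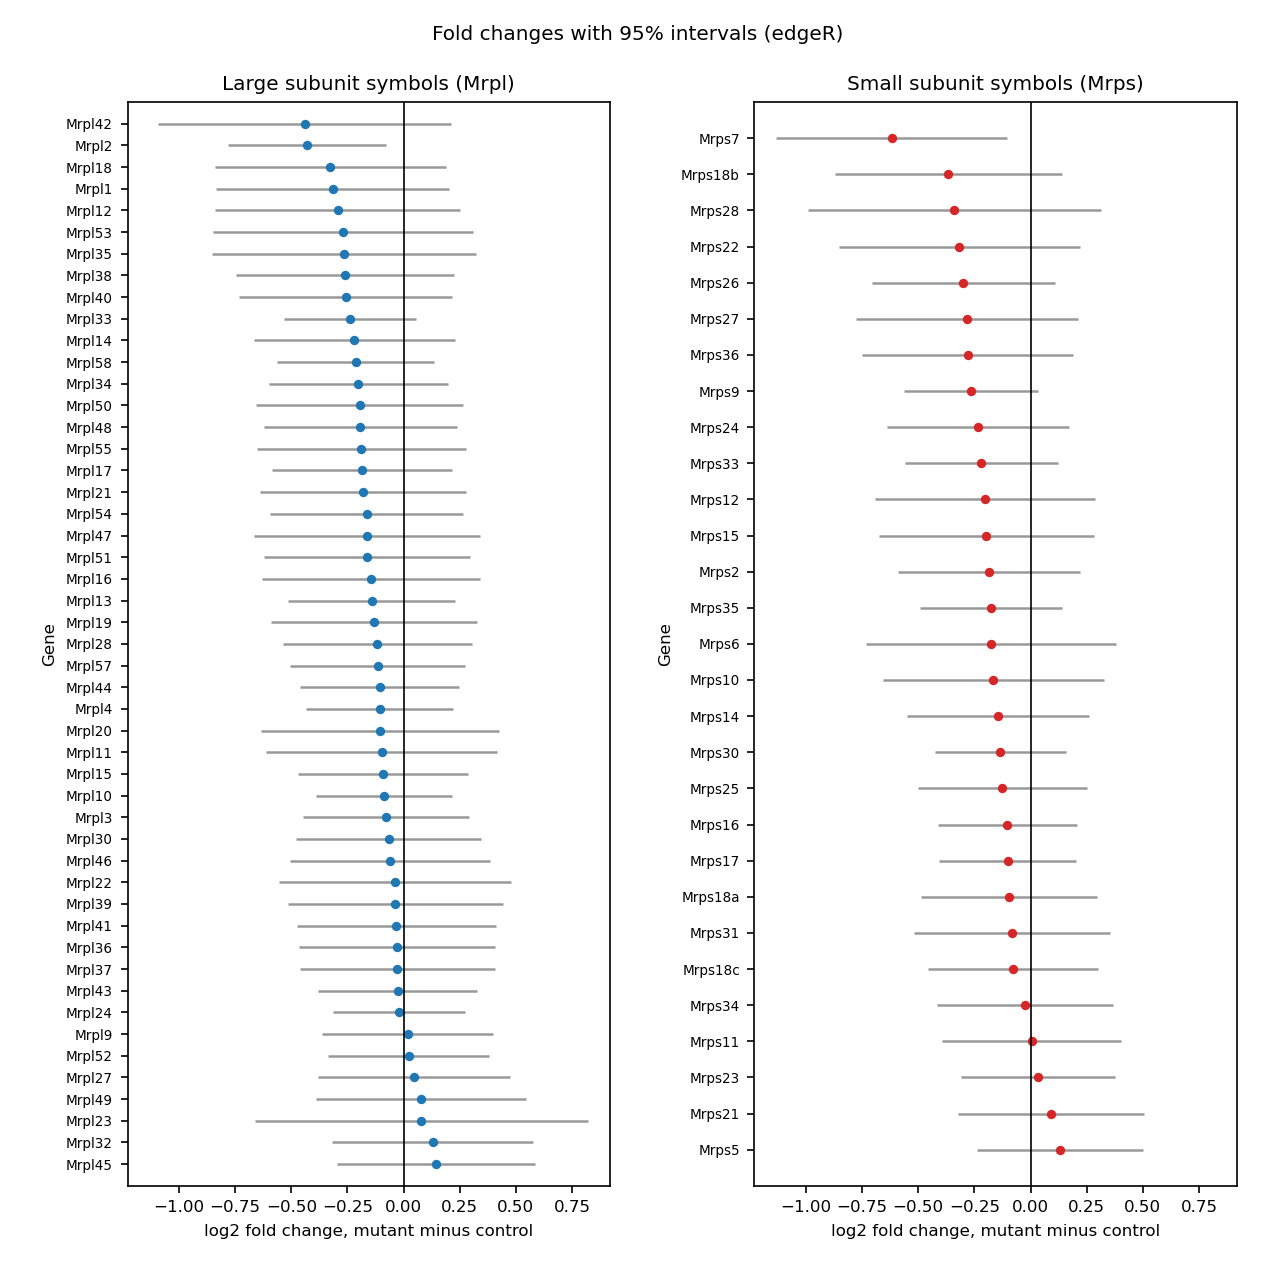
Points are log2 fold changes, mutant minus control, of the large (left) and small (right) subunit genes, and lines their 95% intervals from edgeR. Most points lie below 0, and the intervals of Mrpl2 and Mrps7 are the 2 that do not include 0.

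Among large subunit genes with a bacterial counterpart, Mrpl2, whose bacterial homologue lies near the site of peptide bond formation, was at 24.1, 26.9 and 24.2 CPM in control 1, 2 and 3 and at 20.7, 16.7 and 18.4 CPM in mutant 1, 2 and 3. The groups did not overlap, and here mutant 2, not mutant 1, was lowest. This came to -0.43 ± 0.15 as a log2 fold change (SE), with -0.78 and -0.08 as the 95% bounds and an adjusted p of 0.644 in edgeR. Mrpl33, a small protein of the large subunit, was at 51.4, 51.7 and 51.7 CPM (control) and 40.8, 46.9 and 43.5 CPM (mutant). Its control values were the closest together of any member, with a coefficient of variation of 0.391%, and the log2 fold change was -0.24 ± 0.13 (SE). Mrpl1, part of the mobile stalk near the exit of spent tRNA, was at 40.5, 45.7 and 42.1 CPM (control) and 22.9, 40.0 and 40.1 CPM (mutant). Mutant 2 and 3 of Mrpl1 lay just under the lowest control, and mutant 1 lay far below both.

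Mrpl12, which carries translation factors and also binds the mitochondrial RNA polymerase, was at 67.0, 90.2 and 65.6 CPM (control) and 46.3, 54.4 and 81.2 CPM (mutant). Mutant 3 exceeded 2 of the controls, so the groups overlapped, and the log2 fold change was -0.29 ± 0.24 (SE). Mrpl18 was at 64.2, 92.2 and 70.4 CPM (control) and 45.7, 59.1 and 76.2 CPM (mutant), the same ordering as Mrpl12 within the mutant group. Mrpl23, at the exit of the peptide tunnel, had the lowest CPM of the members and ran against the common pattern: 6.91, 3.86 and 5.53 CPM (control) and 7.26, 4.02 and 5.92 CPM (mutant), with mutant 1 highest and control 2 lowest. Over the 29 large subunit genes with a bacterial counterpart, 25 were lower, with a median of -0.12.

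Among the large subunit proteins added in mitochondria, Mrpl42 had the lowest log2 fold change of the Mrpl genes, at -0.44 ± 0.28 (SE). Its values were 39.8, 57.7 and 48.3 CPM (control) and 21.5, 40.1 and 45.8 CPM (mutant). Mutant 1 stood apart, and mutant 2 and 3 lay within the control range, and without mutant 1 the log2 fold change was -0.17. Mrpl40 had the same form, with control values of 31.3 to 41.9 CPM, mutant 1 at 22.8 CPM and the other two mutant libraries at 32.6 and 36.0 CPM. In Mrpl38 mutant 1 was again lowest, at 21.3 CPM, but mutant 2, at 29.6 CPM, was also under the control range of 31.3 to 39.1 CPM, and mutant 3, at 35.9 CPM, was within it. Mrpl58, a peptidyl-tRNA hydrolase that became a ribosomal protein, had another order: 27.2, 30.8 and 28.1 CPM (control) and 28.4, 23.0 and 22.8 CPM (mutant), with mutant 1 inside the control range. Mrpl45, which holds the ribosome at the inner membrane, had the highest CPM and the highest fold change of the Mrpl genes, 85.3, 121 and 92.4 CPM in control against 92.2, 108 and 130 CPM in mutant libraries. The log2 fold change of Mrpl45 was 0.15 ± 0.19 (SE), and the groups overlapped. Over the 22 genes listed in this class, 19 were lower, with a median of -0.12. The list includes Mrps30 and also Mrps18a, although Mrps18a is named after a bacterial protein.

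In the small subunit, Mrps7, which organises the head of the subunit, had the lowest log2 fold change of all members, -0.62 ± 0.22 (SE; 95% interval from -1.13 to -0.11; edgeR adjusted p = 0.644). Mrps7 was at 45.4, 65.5 and 44.1 CPM (control) and 31.3, 27.7 and 41.9 CPM (mutant). The groups did not overlap, though mutant 3 lay close under control 3, and control 2 was far above the other two. Exons of Mrps7, 1962 bases long, overlap Gga3 and Mif4gd on the other strand by 246 bases, summed over these 2 genes. Reads of these genes in the shared bases cannot be told apart without strand. Mrps9, whose bacterial homologue reaches the site of the growing chain's tRNA, was at 53.0, 55.2 and 52.3 CPM (control) and 42.3, 42.4 and 48.7 CPM (mutant), without overlap. Its log2 fold change was -0.27 ± 0.13 (SE). Mrps12, of the decoding centre, was at 13.1, 19.4 and 13.03 CPM (control) and 11.7, 13.7 and 14.1 CPM (mutant), and control 2 alone stood out. Mrps5, at the entry of the messenger RNA, had the highest fold change of the Mrps genes, 0.13 ± 0.16 (SE), with 42.4, 53.0 and 52.0 CPM (control) and 60.5, 46.4 and 54.5 CPM (mutant). Mrps28 had the lowest CPM of the Mrps genes, at 8.57, 13.2 and 8.54 CPM (control) and 5.77, 8.30 and 9.89 CPM (mutant). Over the 16 small subunit genes listed with a bacterial counterpart 13 were lower, with a median of -0.17. Over the 10 listed as added in mitochondria 9 were lower, with a median of -0.20. Those 10 include Mrps18b, although it is named after a bacterial protein.

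Of the other small subunit symbols with low p-values, Mrps26 was at 29.5, 36.0 and 25.6 CPM (control) and 23.1, 23.1 and 27.9 CPM (mutant). Mrps33 was at 32.4, 41.5 and 35.9 CPM (control) and 29.6, 33.1 and 31.5 CPM (mutant). Mrps36, the dehydrogenase component, was at 10.3, 13.8 and 11.3 CPM and at 8.65, 11.2 and 9.29 CPM. In each of these 3 genes the groups overlapped and control 2 was the highest library. Mrps30, which sits in the large subunit and had the highest CPM of the Mrps symbols, was at 59.3, 64.1 and 58.9 CPM (control) and 52.1, 55.2 and 58.8 CPM (mutant), and mutant 3 was just under control 3.

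Mrps18a, Mrps18b and Mrps18c are related genes, all named after a single bacterial protein, whose products occupy different places, the first in the large subunit. Mrps18b was at 53.8, 61.1 and 52.9 CPM (control) and 31.4, 41.6 and 57.1 CPM (mutant), spread from far below the controls to within their range. Its log2 fold change was -0.37 ± 0.22 (SE), and -0.17 without mutant 1. Exons of Mrps18b share 638 of 1079 bases with Gm16279, a gene on the other strand, whose reads cannot be told apart without strand. Mrps18a was at 25.03, 29.4 and 25.2 CPM (control) and 21.1, 24.1 and 29.2 CPM (mutant). Mrps18c was at 17.8, 18.9 and 18.9 CPM (control) and 15.04, 17.7 and 19.9 CPM (mutant). In all 3 the order within the mutant group was the same, with mutant 1 lowest and mutant 3 highest. The log2 fold changes of Mrps18a and Mrps18c were -0.10 ± 0.17 and -0.08 ± 0.16 (SE). The differences among the 3 fold changes were not tested.

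**Figure D3:**
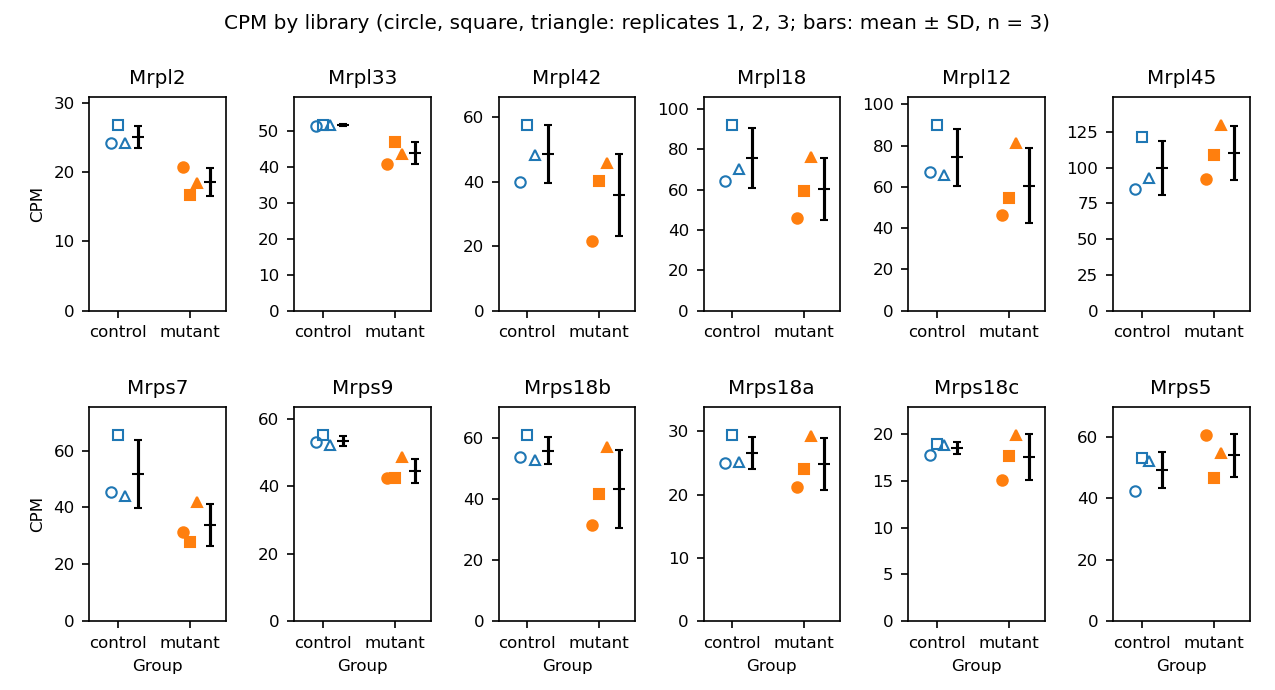
CPM of 12 members in each library, with open blue symbols for control and filled orange symbols for mutant libraries, and circles, squares and triangles for replicates 1, 2 and 3. Bars are mean ± SD (n = 3). Mrpl2, Mrpl33, Mrps7 and Mrps9 show no overlap between groups, and in the other 8 genes the groups overlap.

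The large and small subunit genes moved almost in parallel from library to library. The mean log2 CPM of the 49 Mrpl genes, relative to the control mean, was -0.12, 0.20 and -0.07 in control 1, 2 and 3 and -0.31, -0.11 and 0.02 in mutant 1, 2 and 3. That of the 29 Mrps genes was -0.12, 0.18 and -0.06 in control and -0.38, -0.14 and -0.01 in mutant libraries. Mutant 3 was above control 1 and control 3 for both subunits, so the groups overlapped in both. Summed CPM of the Mrpl genes was 1891 ± 253 in control and 1741 ± 232 in mutant libraries, and of the Mrps genes 1057 ± 112 and 939.5 ± 114 (SD, n = 3). The median log2 fold change was -0.12 for Mrpl genes, 42 of 49 of them lower, and -0.18 for Mrps genes, 25 of 29 of them lower.

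The subunits were then compared within each library. The mean log2 CPM of Mrps genes minus that of Mrpl genes, relative to the control mean, was 0.0009, -0.011 and 0.0097 in control 1, 2 and 3 and -0.064, -0.023 and -0.035 in mutant 1, 2 and 3. The mutant values all lay below the control values, by 0.041 on average on the log2 scale, where the SD of this difference was 0.010 in control and 0.021 in mutant libraries. With 52 members whose exons overlap no other gene, a choice made after the data were seen, the mean difference was -0.0027. Counting Mrps18a and Mrps30 as large subunit genes gave -0.045. The summed CPM of Mrps genes was 0.56 ± 0.015 of that of Mrpl genes in control and 0.54 ± 0.0066 in mutant libraries (SD, n = 3). This ratio was 0.57, 0.543 and 0.567 in control 1, 2 and 3 and 0.547, 0.54 and 0.534 in mutant 1, 2 and 3, so on sums the groups overlapped, and mutant 1 was the highest mutant library. No test was made of these means over members, since the members were chosen with earlier results known.

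**Figure D4:**
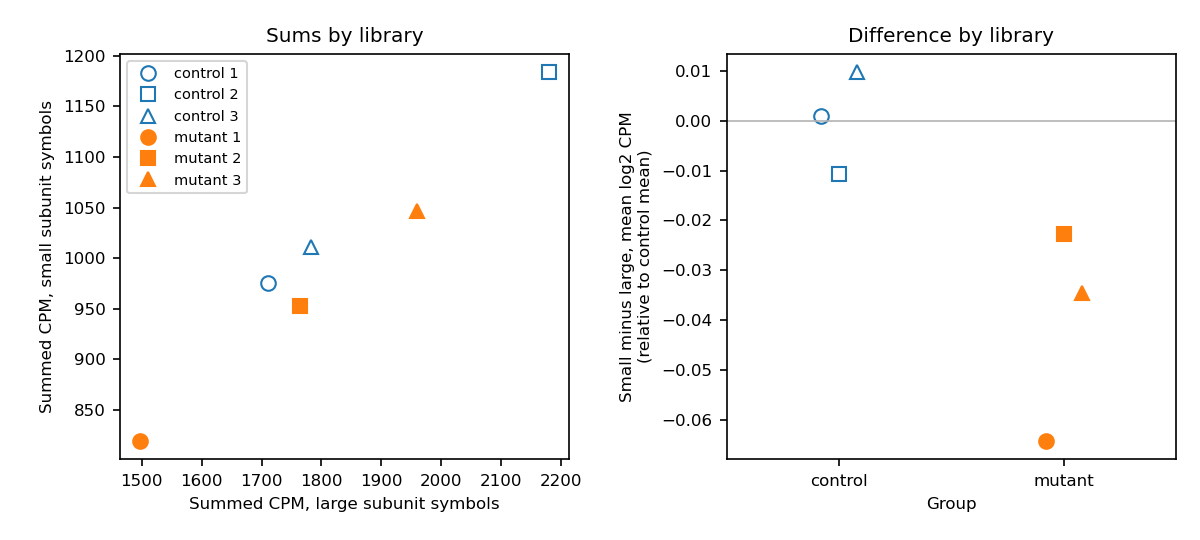
The left plot sets the summed CPM of small subunit genes against that of large subunit genes in each library. The right plot gives the mean log2 CPM of small minus large subunit genes relative to the control mean. The libraries lie near a line from mutant 1 to control 2 in the left plot, and the 3 mutant libraries lie below the 3 controls in the right plot, within 0.07 log2 units.

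The median coefficient of variation of the members was 12.8% in control and 14.9% in mutant libraries, against 14.8% and 22.99% over all genes tested. In mutant 1, 68 of 78 members were below their control mean, with a median difference of -0.33, and in mutant 2, 62 of 78 with a median of -0.09. In mutant 3, 32 of 78 were below, with a median of 0.04. In control 1, 73 of 78 and in control 3, 65 of 78 were below the mean of the 3 controls, and in control 2, 3 of 78 were. Over all genes tested these shares were between 48.4% and 51.1% in each library. In mutant 1 the members furthest below the control mean were Mrpl42, Mrpl35, Mrps22 and Mrpl1, by log2 differences of -1.16, -0.91, -0.90 and -0.89, and the furthest above were Mrpl23 and Mrps5, at 0.45 and 0.31. These 6 were named after their values were seen.

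Levels between genes were compared as CPM per kilobase of exon, with the exon length taken from GENCODE M21, in which all 78 members were matched. Mrpl33 had the highest level, at 99.7 CPM per kilobase over the 6 libraries, followed by Mrps6 at 67.0, Mrpl42 at 62.1, Mrps21 at 55.8 and Mrpl18 at 55.8. Below Mrpl33 the order differed between the groups: Mrps21 was at 54.1 in control and 57.6 in mutant libraries, Mrpl18 at 62.04 and 49.5, and Mrpl42 at 71.6 and 52.7. Exons of Mrps6, 846 bases long, overlap Gm49711 and Slc5a3 by 464 bases, summed over these 2 genes, so a base shared with both counts for each. Those of Mrpl33 share 107 of 478 bases with Gm43809 on the same strand. Mrpl33 was at 108 ± 0.421 in control, above every library of the others, while control values of Mrps6 (71.1 ± 12.3) and Mrpl42 (71.6 ± 13.2) could not be told apart (SD, n = 3). The lowest were Mrpl57 at 4.98, Mrpl48 at 5.56, Mrpl17 at 5.61 and Mrpl23 at 5.78 CPM per kilobase. The medians were 21.04 for Mrpl and 19.2 for Mrps genes. The order depends on annotated ends, since a long end that these cells do not use lowers the value.

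Some members start near another gene on the other strand. How often this holds over all genes tested was not computed. In GENCODE M21, 23 of 78 members had a protein-coding gene on the other strand starting within 1000 bases upstream or up to 200 bases inside, and 22 of these partners were tested. Of the 22 partners 13 were lower in mutant cells, with a median log2 fold change of -0.09, and of their 22 members 18 were lower, with a median of -0.11. Ppp1r10, a partner of Mrps18b with starts 45 bases apart, was at 136 ± 16.0 CPM (control) and 168 ± 14.2 CPM (mutant). Gga3, the partner of Mrps7, was at 58.3 ± 1.01 and 64.6 ± 1.33 CPM, and Klc4, that of Mrpl2, at 4.58 ± 0.191 and 6.998 ± 3.6 CPM (SD, n = 3). In these 3 pairs the member had a lower and the partner a higher mean in mutant cells, while in 10 of the 22 pairs both were lower. No partner passed edgeR's test (smallest adjusted p = 0.598, Eme2, beside Mrps34). Sars2, which encodes the mitochondrial seryl-tRNA synthetase and faces Mrps12, was at 10.7 ± 1.19 and 10.5 ± 1.98 CPM.

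Fold changes were set side by side for members with and without each promoter motif. The 26 members with an ETS core had a median log2 fold change of -0.18, with 22 lower, and the 43 without one a median of -0.13, with 36 lower. The 13 with a YY1 core had a median of -0.10 and the 56 without one -0.145. The 8 with an NRF1 half-site had a median of -0.06 and the 61 without one -0.15. The 5 with an E-box had a median of -0.08 and the 64 without one -0.15. Differences between these medians were not tested.

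Companion genes of mitochondrial translation were taken from fixed lists, and 0 of them passed edgeR's test. Of 5 further ribosomal proteins with other symbols (Dap3, Ptcd3, Chchd1, Aurkaip1 and Gadd45gip1) all 5 were lower, with a median log2 fold change of -0.20. Ptcd3, which binds messenger RNA at the small subunit, was at 118, 127 and 127 CPM (control) and 76.2, 86.4 and 109 CPM (mutant), without overlap, and Dap3, a GTP-binding protein of the small subunit, was at 70.7 ± 3.62 and 60.4 ± 4.38 CPM (SD, n = 3). Of 26 assembly factors 17 were lower and 9 higher, with a median of -0.07. Tfb1m, which methylates the small subunit RNA, was at 11.1, 11.4 and 11.4 CPM (control) and 5.62, 8.10 and 7.50 CPM (mutant). Gtpbp10, a GTPase of large subunit assembly, was at 17.04, 15.99 and 18.8 CPM (control) and 11.8, 12.7 and 13.2 CPM (mutant). Neither gene overlapped between groups, and the adjusted p-values in edgeR were 0.618 for Tfb1m and 0.644 for Gtpbp10.

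Of 17 translation factors 13 were lower, with a median log2 fold change of -0.25. Mtrf1, a release factor, was at 7.26 ± 0.572 CPM (control) and 4.602 ± 1.05 CPM (mutant), and Mtif2, the initiation factor that brings the first tRNA, at 42.8 ± 1.34 and 35.5 ± 0.433 CPM (SD, n = 3). Of 17 mitochondrial tRNA synthetases 12 were lower, with a median of -0.08. Among them was Rars2, the enzyme for arginine, at 30.3 ± 2.71 and 20.3 ± 4.32 CPM. As for the members, control 2 was highest and mutant 1 lowest in mean log2 CPM for each of these lists so far. Relative to the control mean they were at 0.13 and -0.42 for the ribosomal proteins with other symbols. They were at 0.10 and -0.25 for assembly factors, 0.09 and -0.38 for translation factors and 0.10 and -0.21 for tRNA synthetases. The 11 genes of mitochondrial DNA copying and transcription had 4 lower and 7 higher, with a median of 0.03. Polg2, the accessory subunit of the mitochondrial DNA polymerase, was at 11.3 ± 0.731 and 18.5 ± 8.10 CPM, and Tfam, which packs mitochondrial DNA, at 63.6 ± 0.552 and 54.0 ± 4.40 CPM. Of 8 tested regulators of mitochondrial genes 6 were lower, with Ppargc1b, a coactivator, at 6.57 ± 0.733 and 4.53 ± 0.926 CPM and Myc at 300.3 ± 13.4 and 253 ± 27.4 CPM.

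Cytosolic ribosomal protein genes make up the ribosome outside mitochondria. The mean was higher in mutant than control libraries for 70 of 83, with a median log2 fold change of 0.09, and 0 passed edgeR's test. Rps15a was at 297 ± 9.65 CPM (control) and 370.4 ± 69.4 CPM (mutant), and Rps27rt at 373 ± 39.0 and 477 ± 106 CPM (SD, n = 3). Rps27, the gene that Rps27rt is named after, was at only 3.48 ± 0.436 and 3.90 ± 0.446 CPM. The 83 genes were taken by symbol, and Rpl37rt, Rps3a2 and Rps3a3 are also among them. How reads were divided among similar copies is not stated. Mutant 1, the lowest library for the mitochondrial ribosome, was the highest for the cytosolic one, with a mean log2 CPM 0.16 above that of the controls, and mutant 3 was at 0.14. Mutant 2 was at -0.02 and control 2 at 0.11 on the same measure, so the groups overlapped. The 15 mitochondrially encoded genes had a median of 0.02, with 7 lower and 8 higher. Their mean log2 CPM was -0.39, 0.08 and 0.21 in mutant 1, 2 and 3 relative to the control mean. Mitochondrial ribosomal RNA is removed during library preparation to an unknown extent, and mt-Rnr1, the small subunit RNA, was at 5.88 ± 0.603 CPM (control) and 7.62 ± 1.47 CPM (mutant). The transcript of a respiratory chain subunit, mt-Co3, was at 1164 ± 151 and 1367 ± 126 CPM. The difference between the mitochondrial and cytosolic lists was not tested.

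**Figure D5:**
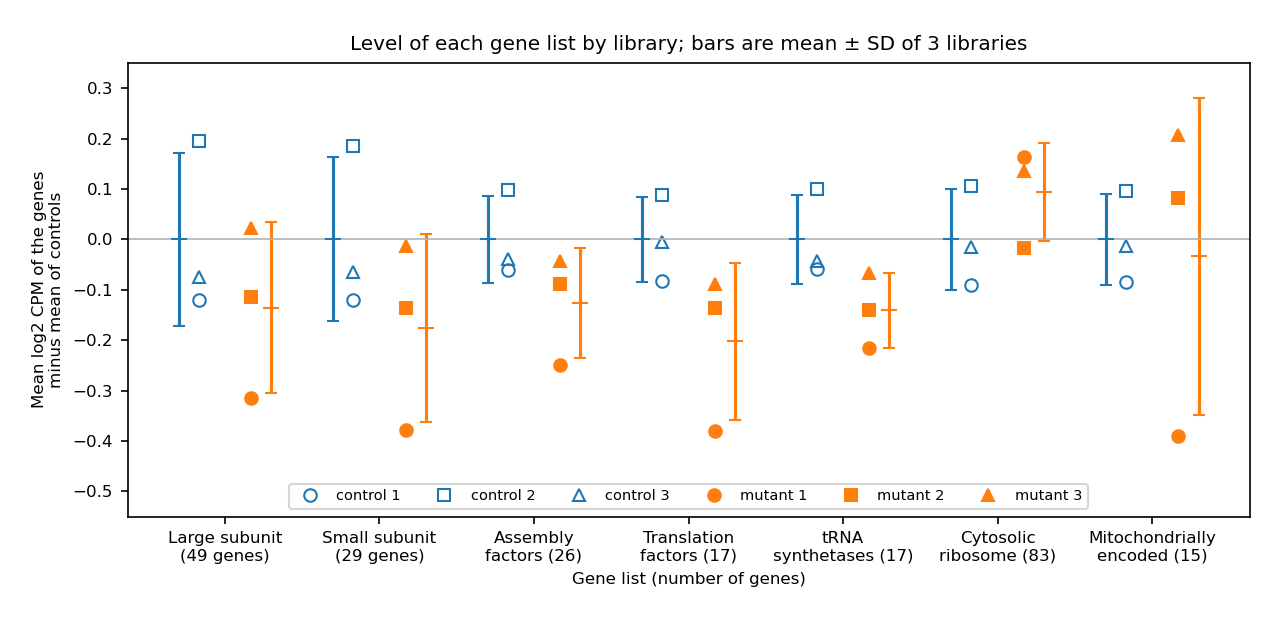
Each point is the mean log2 CPM of a gene list in a library relative to the mean of the 3 controls, with control in open blue and mutant in filled orange symbols, and bars give mean ± SD (n = 3). Both subunits have control 2 at the top and mutant 1 at the bottom, and for cytosolic ribosomal protein genes mutant 1 is at the top.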

How the data were processed

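The values deposited by the authors are unnormalized estimated counts, 57.8% of them whole, with a column for each library. Per the submitters' processing notes, STAR 2.7.8a and Partek and the builds GRCm39 and mm39 were used; their roles, the annotation and the strand setting are not stated there. Per the labels' protocols, 1.0 µg of total RNA went into ribosomal RNA-depleted libraries. In 32 of 78 members some value lay over 0.1 from a whole number. In GENCODE M21, exons of 26 members overlap another gene, 22 of them on the other strand.

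Estimated counts were rounded, filtered with filterByExpr (minimum count 10; 18323 genes kept), scaled by TMM and compared, mutant minus control, with edgeR 4.0.16 (quasi-likelihood, robust, two-sided, no covariates, R 4.3.3), adjusting by Benjamini-Hochberg over all genes with a threshold of 0.05. The SE is the log2 fold change over the root of F. Log2 CPM used a prior count of 2. DESeq2 1.42.0 and limma-voom (limma 3.58.1) were alternatives, beside other scalings and filters, the replicate block and leaving out each library. Each pair of libraries differed beyond sampling noise (ratio of chi-square to its degrees of freedom from 18.7 to 198, highest in the pairs with mutant 1).

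The members and lists were chosen with earlier results of these data known. Named members were the 8 Mrpl and 6 Mrps genes with the smallest p, the extremes of fold change and CPM in each subunit, and Mrps18a, Mrps18b, Mrps18c, Mrps30, Mrpl12, Mrpl58 and Mrps12; of other lists, the 2 genes with the smallest p, 1 of which is not reported here. Mrps35 and the partner genes were named after their values were seen. Same-numbered libraries did not deviate together (correlations from -0.067 to -0.029).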

Additional observations from a re-analysis of the deposited data

How the results depend on the processing

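No member was called under any of the settings run. In the main fit 0 of all 18323 genes tested were called, so this count does not set the members apart. The lowest member value, 142 estimated counts, was in Mrpl23, whose coefficient of variation was 28.15% in control and 28.4% in mutant libraries. DESeq2 called 100 genes in all. The median log2 fold change of Mrpl genes ran from -0.21 to -0.03 and that of Mrps genes from -0.24 to -0.05 when 1 library was left out, with -0.03 and -0.10 without control 2 and -0.04 and -0.05 without mutant 1. Without control 2 and mutant 1 together the medians were 0.064 and 0.033. The count of lower members was 52 without control 2, 50 without mutant 1 and 59 with upper quartile scaling. The difference of small minus large subunit ran from -0.049 to -0.029 when 1 library was left out, and was -0.0027 with members free of exon overlap.

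Members whose groups did not overlap, in either direction, numbered 7 to 21 when 1 library was left out. The share of all genes was then 18.3% to 32.1%. Leaving out control 1 gave 16, all with mutant lower, against 10.4% of all genes lower without overlap. Leaving out mutant 3 gave 21, all with mutant lower, against 16.1%. Leaving out control 2 gave 13, against 27.5% of all genes in either direction. Of the 13, 7 had mutant lower (14.3% of all genes) and 6 higher (the rest of the 27.5%). Leaving out mutant 2 gave 11, against 23.2% of all genes in either direction. Of the 11, 9 had mutant lower (11.3% of all genes) and 2 higher (the rest of the 23.2%). Members without overlap numbered 35 without control 2 and mutant 1, against 45.4% of all genes in either direction. Of these 35, 7 had mutant lower, against 22.4% of all genes, and 28 had mutant higher, against the rest of the 45.4%. There were 4 without mitochondrial and small structural RNA genes and 4 of the 52 members free of exon overlap, all with mutant lower. The shares of all genes with mutant lower were 6.74% and 7.48% in these settings. In either direction they were 13.9% and 14.1%. With the replicate block the medians were -0.12 for Mrpl and -0.18 for Mrps genes and 0 genes were called, with 991 genes at an unadjusted p under 0.05 against 1396 without it. Of 322 values of the 23 named members under 14 settings, 5 had the other sign. Many of these members were named for a small p or an extreme fold change in these same data, which favours a stable sign. The 14 settings do not include the one without control 2 and mutant 1 together. Over all 78 members, 67 were lower in the main fit, 52 without control 2 and 50 without mutant 1. The cause of these shifts was not tested.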
